A study of Mus musculus with 6 samples.

Results

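Among olfactory sensory neurons (OSNs) of the mouse main olfactory epithelium, a set of 1280 mature cells carried *Nqo1*, an enzyme long used to mark the dorsal part of the tissue, together with a class II olfactory receptor (OR). They were taken from 24830 kept cells, 5535 mature OSNs and 4515 mature OSNs with an assigned class II OR. A cell was kept with at least 1000 unique molecular identifiers (UMIs, each counting 1 captured transcript) and 500 detected genes. It was called a mature OSN with at least 10 *Omp* UMIs, more *Omp* than *Gap43*, at least 5 UMIs of *Cnga2*, *Adcy3* and *Gng13* together and fewer than 5 of the sustentacular gene *Cyp2g1*. The Nqo1-positive class II OSNs then needed at least 2 *Nqo1* UMIs, no *Avp*, and 1 top OR of at least 3 UMIs whose *Olfr* number fell outside the run of numbers that holds most class I ORs. All these genes chose the cells, so their own levels are description only.

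The libraries asked what happens to OR choice when HP1β, encoded by *Cbx1*, is replaced by HP1α, encoded by *Cbx5*. Swap mice (2 libraries) carried Cre and were Cbx*/*, with both *Cbx1* copies converted by Cre to express HP1α. Control replicate 1 was wild type at the Cbx alleles and carried Cre, and control replicate 2 was Cbx*/* without Cre, so the 2 controls differed in genotype. The *gg8tTA* library carried gg8-tTA alone, a transactivator driven by the promoter of a gene of immature OSNs. The *tetOP2* library carried gg8-tTA; tetOP2iresGFP, which forces expression of the P2 receptor, *Olfr17*. The labels give no ages, and only 1 library was made of each of the last 2 genotypes. *Xist* was found in 95.8% of the Nqo1-positive class II OSNs of swap replicate 1 and in 0% of those of swap replicate 2 and both controls, so sex was not balanced between the genotypes.

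Libraries held 63277934 and 60729307 UMIs in swap replicates 1 and 2, 58498968 and 59045808 in control replicates 1 and 2, 35298494 in *gg8tTA* and 32005196 in *tetOP2*. Nqo1-positive class II OSNs numbered 192 and 281 in the swap libraries, 235 and 291 in the control libraries, 147 in *gg8tTA* and 134 in *tetOP2*. Their median depth lay between 10780.5 and 12433 UMIs per cell in the 6 libraries. Class II OSNs with neither *Nqo1* nor *Avp*, the cells they were compared with and called Nqo1-negative OSNs here, numbered 2902 and had medians of 11424.5 to 13460 UMIs. No cell barcode of the Nqo1-positive class II OSNs was shared between libraries, and 0 to 20 of all deposited barcodes were shared by any pair of libraries. Doublets were predicted for 12, 10, 9, 20, 8 and 0 of the Nqo1-positive class II OSNs in the order above.

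Each mature OSN transcribes 1 OR gene of a very large family, and each OR is used only within a restricted band of the epithelium that runs from dorsal to ventral. Class I ORs are the more ancient, fish-like subfamily, sit in 1 cluster on chromosome 7 and are mostly dorsal, while class II ORs are spread over most chromosomes and fill both dorsal and ventral bands. NQO1 is a quinone reductase, and dorsal OSNs send their axons to the dorsal olfactory bulb, where the NQO1 protein outlines their territory. Ventral OSNs express the adhesion molecule NCAM2, also known as OCAM, and the guidance receptor neuropilin 2. HP1 proteins bind histone H3 methylated at lysine 9, the mark of the silent OR genes.

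The start sites of the 3 genes that mark the set are shown to give the sequence around them. The windows run from 250 bases before to 50 after the RefSeq start (GRCm38.p6, printed 5′ to 3′ on the gene's strand). Capitals mark matches on either strand to 1 of 4 motifs that did not overlap in these windows. They were the Ebf site written as TCCCNNGGGA and the homeodomain core written as TAATTA. The others were the antioxidant response element written as TGACNNNGC and the TATA box, searched as TATAAA. *Nqo1* lies on the minus strand at chr8:107403156-107403455, *Acsm4* on the plus strand at chr7:119689776-119690075 and *Cartpt* on the minus strand at chr13:99900634-99900933.
Nqo1: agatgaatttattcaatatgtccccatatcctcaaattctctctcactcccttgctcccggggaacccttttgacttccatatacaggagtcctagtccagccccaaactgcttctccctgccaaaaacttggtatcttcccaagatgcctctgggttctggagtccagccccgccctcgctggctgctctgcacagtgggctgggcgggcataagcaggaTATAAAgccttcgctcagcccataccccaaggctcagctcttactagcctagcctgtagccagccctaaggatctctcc
Acsm4: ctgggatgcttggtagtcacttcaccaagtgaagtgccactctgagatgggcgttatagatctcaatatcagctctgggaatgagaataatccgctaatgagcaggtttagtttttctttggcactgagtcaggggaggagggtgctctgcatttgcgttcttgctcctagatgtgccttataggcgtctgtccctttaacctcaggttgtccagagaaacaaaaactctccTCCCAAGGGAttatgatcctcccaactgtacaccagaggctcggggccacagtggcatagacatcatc
Cartpt: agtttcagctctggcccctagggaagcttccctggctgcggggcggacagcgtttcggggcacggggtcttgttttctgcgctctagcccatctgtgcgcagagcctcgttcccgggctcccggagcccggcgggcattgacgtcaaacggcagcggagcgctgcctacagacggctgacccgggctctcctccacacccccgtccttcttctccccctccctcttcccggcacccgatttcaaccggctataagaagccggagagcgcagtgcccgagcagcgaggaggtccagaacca
The *Nqo1* window held a TATA box 29 bases before the start and no antioxidant letters, the *Acsm4* window held the Ebf letters 18 bases before the start, and the *Cartpt* window held none of the 4. Bases further upstream were not searched, so a site there would be missed. Of all 27025 RefSeq windows of this length, 0.914% held the Ebf letters, 5.31% TAATTA, 12.5% the antioxidant letters and 14.2% TATAAA. Among the 66 of 91 genes higher in Nqo1-positive OSNs that had a window, the shares were 1.52%, 6.06%, 18.2% and 7.58% in the same order. Among the 8921 matched genes of all those tested they were 0.998%, 2.30%, 15.0% and 6.92%. Letter matches are a description and not evidence of binding.

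The cells matched their label by *Acsm4*, a dorsal marker that had no part in their choice. *Acsm4*, a mitochondrial medium-chain acyl-CoA synthetase, was found in 84.2% to 95.9% of the Nqo1-positive class II OSNs of a library and in 7.39% to 30.5% of the Nqo1-negative OSNs. *Cartpt*, which encodes the CART neuropeptide, did not separate the sets by its presence, since 86.9% to 94.6% of the Nqo1-negative OSNs of a library and 99.3% to 100% of the Nqo1-positive cells held it. The median *Nqo1* count per cell was 15 and 21 UMIs in the swap libraries, 16 and 19 in the controls, 23 in *gg8tTA* and 22 in *tetOP2*. Between 83.0% and 91.8% of the cells held at least 5 *Nqo1* UMIs, well above the minimum.

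Few cells lay just inside the edge of the choice, where 62 had exactly 2 *Nqo1* UMIs and 62.9% of them held *Acsm4*. More lay just outside, where 208 class II OSNs had 1 *Nqo1* UMI, 52 of them in *gg8tTA* and 57 in *tetOP2*. Of the 208, 34.6% held *Acsm4*, against 14.7% of those with none. Free RNA in the droplets was gauged in cells of the B lineage. Cells gated as B lineage reached 2 *Nqo1* UMIs in 0% to 2.63%, at medians of 3086 to 6398 UMIs per cell, and held *Acsm4* at 0 to 32.8 counts per 1000000 UMIs (CPM). Sustentacular cells, which support the OSNs, reached it in 2.68% to 16.4% and held *Acsm4* at 242 to 442 CPM, at medians of 12453 to 18866.5 UMIs, so *Acsm4* was not confined to OSNs and these cells are no gauge of free RNA.

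The number range did not separate the receptor classes fully. By RefSeq family names, 36 of the 1280 cells chose 7 ORs with a class I name outside the range, all on chromosome 7. *Olfr65* accounted for 11 of these cells, *Olfr69* for 8 and *Olfr33* for 5, and *Olfr78*, an OR also known outside the nose, for 4. They were kept, and the shares of the set, the number of ORs, the share with a second OR and the shares by OR class were repeated without them. None of the 6 libraries had a cell of the set with 3 or more UMIs of a trace amine-associated receptor, and an *Olfr* pseudogene outranked the chosen OR in 1, 5, 0, 3, 0 and 1 cells.

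Nqo1-positive class II OSNs made up a larger share of mature OSNs in both swap libraries than in both control libraries. The shares were 25.0% and 28.0% in swap replicates 1 and 2, with exact Clopper-Pearson 95% intervals of 21.9% to 28.2% and 25.3% to 30.9%. They were 20.8% and 22.8% in control replicates 1 and 2, with intervals of 18.5% to 23.3% and 20.6% to 25.2%. Both swap libraries lay above both control libraries, though the interval of swap replicate 1 overlapped those of both controls. The *gg8tTA* and *tetOP2* libraries, at 21.3% and 20.0%, lay near the controls, but this depended on the minimum of *Nqo1*. With 1 *Nqo1* UMI they reached 28.9% and 28.5%, against 27.8% and 30.4% in swap and 23.0% and 25.0% in control mice.

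The means were 26.5% ± 2.18 in swap and 21.8% ± 1.45 in control mice (SD, n = 2 each), a difference of 4.69 percentage points (exact two-sided permutation test, p = 0.33, the smallest p that 2 against 2 libraries allow, so that 0.05 cannot be reached). The same-numbered pairs differed by 4.17 and 5.20 points. Among OSNs with a class II OR the shares were 31.8% and 34.4% in swap and 25.8% and 27.9% in control mice, a difference of 6.21 points (exact permutation p = 0.33), with 27.6% in *gg8tTA* and 22.0% in *tetOP2*. Without the 36 cells with a class I family name they were 24.6% and 27.6% of mature OSNs in swap and 20.4% and 22.1% in control mice. A larger share can come from more cells of this kind or from fewer of the others, which shares cannot tell apart, and intervals cover counting error only. Swap against control was compared for 26 measures with this test, the OR shares of 15 chromosomes included, and the smallest adjusted p over them was 0.578.

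**Figure D1:**
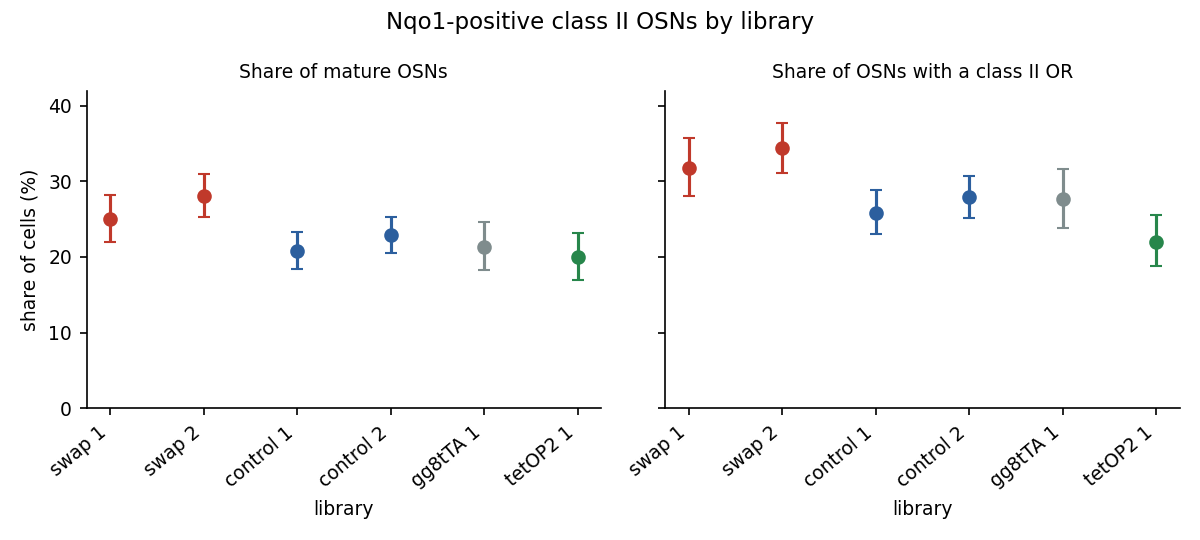
Share of Nqo1-positive class II OSNs per library, among mature OSNs (left) and among OSNs with a class II OR (right), in percent, with exact 95% intervals as bars. The swap libraries, at 25.0% and 28.0% of mature OSNs, lie above the control libraries at 20.8% and 22.8%.

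Nqo1-positive class II OSNs differed from Nqo1-negative OSNs of the same libraries in a limited set of genes. UMIs were summed per library and class and fitted with edgeR's quasi-likelihood test with the library as a block, with OR genes left out, and calls required both a log2 difference beyond 0.58 in size and a p under 0.05 after Benjamini-Hochberg adjustment. Of 11658 genes tested, 287 were called (2.46%), 91 higher (0.781%) and 196 lower (1.68%) in the Nqo1-positive cells. Of these, 75 and 179 moved the same way in all 6 libraries. The median log2 difference of all genes was -0.0025.

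*Acsm4* had the largest difference among the genes named here that were higher. Its level in Nqo1-positive cells was 537 and 407 CPM in swap, 468 and 341 in control, 512 in *gg8tTA* and 494 in *tetOP2*, and in Nqo1-negative cells 48.4, 14.8, 24.9, 12.1, 53.4 and 37.3 in the same order. The ranges were far apart in every library (log2 4.04, SE 0.188, adjusted p = 1.75e-07, higher in 6 of 6 libraries). *Cartpt* was at 2362 to 3508 CPM in Nqo1-positive and at 789.7 to 1182 CPM in Nqo1-negative cells (log2 1.59, SE 0.0441, adjusted p = 2.04e-09), so the groups did not overlap although both expressed it.

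*Papss2*, which makes the sulfate donor PAPS, stood at 43.2 and 71.7 CPM in swap, 35.4 and 60.5 in control, 56.7 in *gg8tTA* and 90.7 in *tetOP2*, against 5.93 to 17.3 CPM in Nqo1-negative cells (log2 2.65, adjusted p = 1.75e-07). *Hs3st5*, a heparan sulfate 3-O-sulfotransferase, was at 34.7 to 57.7 against 10.0 to 17.4 CPM (log2 1.63, adjusted p = 2.42e-06). *Sult1d1*, a cytosolic sulfotransferase, was higher by 0.58 on the log2 scale, just past the size threshold, and its call was lost in 5 of 16 alternatives, where it fell to 0.55 at the lowest.

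The other genes of the rule that were higher were *Nob1*, *2810001G20Rik*, *Dusp26*, *Ppa1* and *Necab2*. *Nob1*, a factor of ribosome maturation, was at 39.6 to 68.7 CPM in Nqo1-positive and at 4.58 to 12.4 CPM in Nqo1-negative cells (log2 2.92, adjusted p = 4.76e-08). It is a neighbour of *Nqo1* on chromosome 8, and whether the counting separated the UMIs of the 2 genes fully was not tested. *Dusp26*, a phosphatase, was higher by 1.51, *Necab2*, a neuronal calcium-binding protein, by 1.12, the uncharacterized *2810001G20Rik* by 1.08 and the pyrophosphatase *Ppa1* by 0.93 on the log2 scale, each in 6 of 6 libraries.

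Genes of ventral OSNs were low in the set. Of the list of 10 tested ventral genes, 9 were lower and 1, *Pcp4l1*, was not called (log2 -0.26, adjusted p = 0.504), with a list median of -2.32. *Nrp2*, the guidance receptor neuropilin 2, stood at 21.4 and 20.9 CPM in swap, 24.7 and 18.7 in control, 24.7 in *gg8tTA* and 8.01 in *tetOP2*. In Nqo1-negative cells it stood at 81.9 to 146 CPM, above every Nqo1-positive value (log2 -2.48, SE 0.118, adjusted p = 1.75e-07). *Ncam2* was at 4.65 to 23.6 CPM against 71.1 to 178 CPM (log2 -3.09, adjusted p = 1.62e-06). The nuclear factor I genes *Nfix*, *Nfia* and *Nfib*, transcription factors, had log2 differences of -2.21, -2.28 and -2.62.

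The lower genes of the rule included *Cidea*, a lipid droplet protein that is also listed with the activity-dependent genes (log2 -2.12, adjusted p = 2.04e-09). *Mdga2*, a synaptic adhesion regulator, was near absent from the set, with 0 to 2.00 CPM against 13.7 to 36.4 CPM in Nqo1-negative cells (log2 -5.48). *Pdlim1*, a scaffold of the actin cytoskeleton, and the uncharacterized *C130074G19Rik* had log2 differences of -3.22 and -3.05. The metallothioneins *Mt2* and *Mt3*, which bind zinc and copper, had -0.90 and -1.0, the septin *Sept3* -1.01 and the small GTPase *Rhoq* -0.76. All of these were lower in 6 of 6 libraries.

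**Figure D2:**
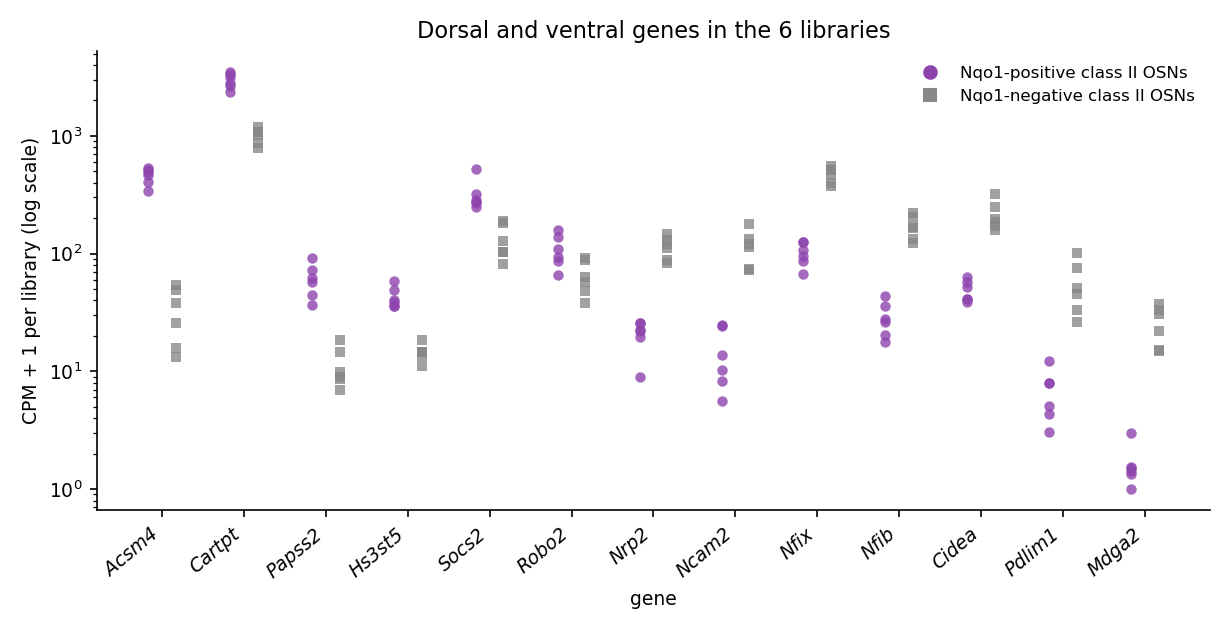
Levels of dorsal and ventral OSN genes as CPM + 1 on a log axis, in Nqo1-positive class II OSNs and Nqo1-negative OSNs, with 1 point per library. *Acsm4* lies at 341 to 537 CPM in Nqo1-positive cells and at 12.1 to 53.4 CPM in Nqo1-negative cells, and *Nrp2* lies the other way round.

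Of 6 tested dorsal genes 4 were higher, with a list median of 1.06, and *Cd55* (log2 -0.18) and *Sema3f* (0.27), a repulsive guidance cue, were not called. Of 26 axon guidance genes 1 was higher, the receptor *Robo2* (log2 0.79, adjusted p = 8.33e-06), and 2 were lower, *Nrp2* and *Sema6d* (-1.23, adjusted p = 0.00801 with edgeR and 0.0545, no longer called, with DESeq2). Of 10 adhesion molecules of glomerular sorting 1 was higher, *Kirrel3* (0.72), and 2 were lower, *Ncam2* and *Kirrel2* (-0.60, adjusted p = 0.0399). The call of *Kirrel2* was lost without any 1 of the libraries other than *tetOP2* (adjusted p = 0.0756 to 0.154). *Kirrel2* and *Cidea* were also the 2 lower genes among 12 activity-dependent genes. No gene was called among 14 of olfactory transduction, 16 of receptor trafficking and feedback, 9 immature OSN markers and 3 HP1 genes, with edgeR or with DESeq2. Small differences were frequent, since 7, 8, 3 and 1 of these genes had an unadjusted p under 0.05 in edgeR, but their log2 values stayed between -0.42 and 0.48 in all 4 lists.

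Other enzymes of the kind of *Nqo1* did not pass the call. Of 25 tested xenobiotic and antioxidant enzymes 0 were called with edgeR and 0 with DESeq2, and 9 had an unadjusted p under 0.05 in edgeR. Their median log2 difference was -0.12, with single values from -1.31 to 0.59. Of 8 medium-chain acyl-CoA enzymes only *Acsm4* was called, and the list median was 0.01.

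Markers of other cell types were followed in the same sums. The 5 neutrophil markers had a median log2 difference of 1.80 with none called, and summed to 5367 and 76.1 CPM in swap, 1818 and 1269 in control, 66.5 in *gg8tTA* and 175 in *tetOP2*, with *S100a9* or *S100a8* the most abundant and none at 0. In Nqo1-negative cells they summed to 43.4, 1230, 18.0, 491, 92.5 and 173 CPM. In 3 libraries 1 cell carried most of it, with 6917 of 12287 neutrophil UMIs in swap replicate 1, and with 5185 of 5233 and 4513 of 4613 in the control libraries. In the other libraries the top cell held 103 of 262 (swap replicate 2), 5 of 129 (*gg8tTA*) and 6 of 262 (*tetOP2*). Of 5 tested basal cell markers 3 were higher (*Krt5*, *Mki67* and *Top2a*, log2 1.14 to 1.33). DESeq2 called only *Mki67* of these, and without predicted doublets none was called (adjusted p = 0.243 to 0.413). In control replicate 1, 1 cell held 14 of the 15 *Krt5* UMIs and 1 cell 21 of the 22 *Top2a* UMIs, and in swap replicate 2, 1 cell held 20 of the 24 *Mki67* UMIs. The 7 listed basal genes summed to 110, 10.2, 31.6, 101, 76.8 and 31.4 CPM, led by *Mki67* or *Krt14*, with 1 or 2 of them at 0 in each library. Sustentacular markers had a median of -0.38 with 0 of 6 called, and erythroid, B lineage, macrophage and microvillar lists had 0 called with edgeR and 0 with DESeq2.

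In 8 of the 91 higher and 8 of the 196 lower genes, 1 cell held over 50% of the UMIs of a library that had at least 10. *Eln* is an example, with 1017 of 1039 UMIs in *gg8tTA* from 1 cell. Without cells of at least 10 neutrophil UMIs 312 genes were called, and without predicted doublets 366.

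Within class II OSNs, the genes that followed *Nqo1* most closely from receptor to receptor included several named above. Over ORs with at least 5 cells in a library (20 and 38 ORs in swap, 32 and 31 in control), the median Pearson r across ORs with *Nqo1* was 0.844 for *Acsm4*, 0.735 for *Nob1*, 0.605 for *2810001G20Rik* and 0.600 for *Cartpt*. It was 0.576 for *Papss2*, 0.529 for *Glyatl3*, 0.512 for *Socs2* and 0.505 for *Sult1d1*. Single libraries differed, with r from 0.791 to 0.931 for *Acsm4* but from 0.203 to 0.637 for *Socs2*. These are descriptions over ORs of the same libraries, which share depth and cells. The *gg8tTA* and *tetOP2* libraries had 3 and 1 such ORs and gave no value.

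The set can be placed beside 2 related groups of OSNs. Class I OSNs with *Nqo1* and no *Avp*, 421 cells, held *Acsm4* at 456 to 776 CPM and *Nfix* at 11.7 to 41.8 CPM, where the Nqo1-positive class II OSNs held *Nfix* at 65.5 to 125 CPM. The small group of 68 *Avp*-positive class II OSNs without *Nqo1* held *Cidea* at 504 to 895 CPM and *Nrp2* at 89.5 to 296 CPM, as against 38.2 to 62.5 and 8.01 to 24.7 CPM in the set. These groups were chosen by receptor number, *Nqo1* and *Avp*, and the differences were not tested.

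Most ORs of sufficient number lay near one end of the range of *Nqo1* shares. Of 77 ORs chosen by at least 10 class II OSNs in the swap and control libraries, 17 had *Nqo1* in at least 80% of their cells and 48 in 10% or fewer, 40 of these in none. The remaining 12 lay between. *Olfr481*, *Olfr812*, *Olfr322*, *Olfr1404*, *Olfr1406* and *Olfr419* had *Nqo1* in 100% of 10 to 14 cells each. *Olfr769* had it in 57.1% of 21 cells and *Olfr1330* in 54.5% of 11. All these shares follow from the *Nqo1* counts that chose the set and are description.

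The side an OR was on did not change between genotypes in the ORs with the most cells. Of 30 ORs with at least 5 cells in each genotype, 9 had *Nqo1* in at least 50% of cells in both, 21 in fewer than 50% in both, and 0 changed side. With fewer cells required some did, 4 of 57 ORs with at least 4 cells in each genotype and 8 of 99 with at least 3. The 4 were *Olfr1330* (0% of 4 swap and 85.7% of 7 control cells), *Olfr769* (64.7% of 17 and 25.0% of 4), *Olfr1034* (75.0% of 4 and 0% of 4) and *Olfr821* (15.4% of 13 and 50% of 4). These lower limits were set after the values were seen, and the differences were not tested.

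**Figure D3:**
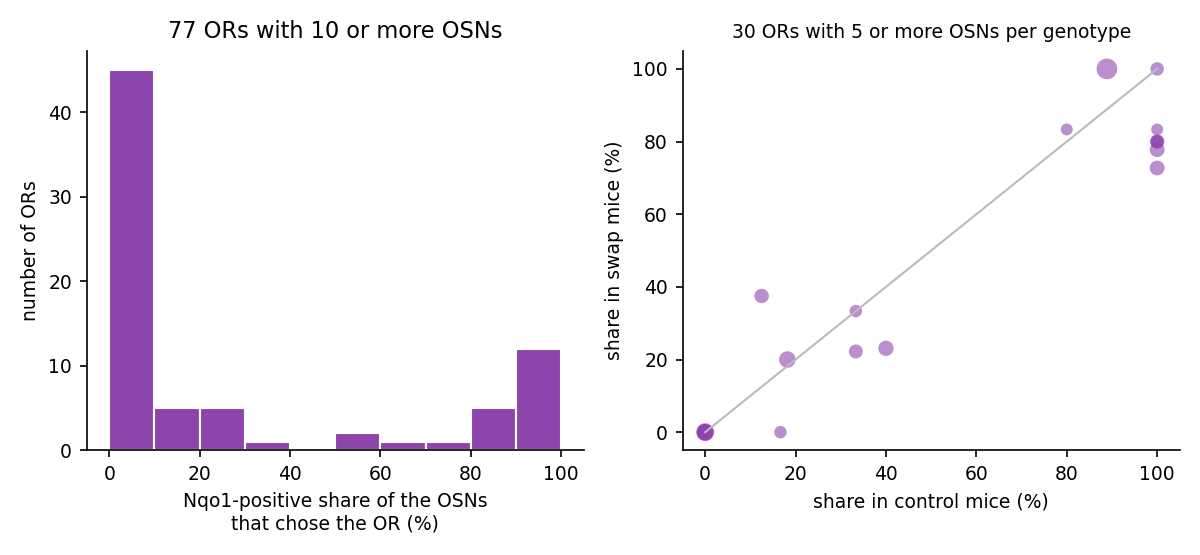
Share of class II OSNs that were Nqo1-positive, in percent, as a histogram over the 77 ORs with at least 10 cells in the swap and control libraries (left), and in swap against control mice for the 30 ORs with at least 5 cells in each (right, point area by cell number, diagonal for equality). Most ORs lie at one end, 17 at 80% or above and 48 at 10% or below.

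To give the ORs a side from cells outside the comparison, they were classed in the *gg8tTA* library, as dorsal where at least 50% of at least 3 class II OSNs were Nqo1-positive and as other where none was. Of 42 ORs with 3 cells, 6 were dorsal, 31 other and 5 mixed. OSNs with 1 of the 6 dorsal ORs were Nqo1-positive in 5 of 6 cells (83.3%) and 8 of 10 cells in swap and in 10 of 10 cells and 8 of 9 cells (88.9%) in control mice. The libraries did not overlap, with control the higher, but the difference of -12.8 points (-12.1 without *Olfr33*, the 1 of the 6 with a class I family name) rests on 6 to 10 cells per library (exact permutation p = 0.33) and turned positive with 1 *Nqo1* UMI or with classes from both *gg8tTA* and *tetOP2*. OSNs with the 31 other ORs were Nqo1-positive in 2.44% and 1.59% in swap and 0% and 3.95% in control mice (difference 0.04 points, exact permutation p = 1), where the exact 95% interval of 0 of 75 cells reaches 4.80%.

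The forced receptor of *tetOP2* gave another view of how *Nqo1* and the OR go together. *Olfr17* was the top OR of 377 of 608 class II OSNs (62.0%) and of 88 of 134 Nqo1-positive class II OSNs (65.7%) in this library. In the other 5 libraries it was chosen by 0 to 6 class II OSNs, of which 0 were Nqo1-positive. Of the *Olfr17* OSNs of *tetOP2*, 23.6% were Nqo1-positive. Those held *Acsm4* at 494 CPM, and the 46 Nqo1-positive OSNs with other ORs also held it at 494 CPM. With 1 library there is no replicate check.

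Nqo1-positive class II OSNs chose 353 different ORs over the 6 libraries and 321 in the swap and control libraries, 129 of these in 1 cell only and 17 in at least 10 cells. Swap cells (473) chose 173 ORs and control cells (526) chose 267, with 119 chosen in both, which is 68.8% of the swap and 44.6% of the control ORs. Of the 353, 350 matched a RefSeq gene.

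*Olfr1361* was the OR chosen most in the swap and control libraries. It is named MOR256-12 in its family and lies at chr13:21658368-21664523 (RefSeq gene span, GRCm38.p6). It was the OR of 11 and 13 cells in swap (5.73% and 4.63% of the set) and of 4 and 4 cells in control mice (1.70% and 1.37%), with 2 cells each in *gg8tTA* and *tetOP2* (1.36% and 1.49%). Both swap libraries lay above all 4 others in this share of the whole set. In *tetOP2*, however, 88 of the 134 cells had the forced *Olfr17*, and the 2 cells with *Olfr1361* were among the 46 with other ORs. Over the 17 ORs with at least 10 cells, edgeR's quasi-likelihood test on cell numbers called 1 (5.88%), *Olfr1361* (5.18% ± 0.78 against 1.54% ± 0.23, SD, n = 2 each; log2 1.71, SE 0.286, adjusted p = 0.0244). The minimum of 10 cells counted both genotypes together, and *Olfr1361* reached it through its swap cells alone, so this call and its p are a description. The call was lost with DESeq2 (adjusted p = 0.576) and, in edgeR, with a minimum of 5 cells (adjusted p = 0.0875), at log2 1.75 and 1.71. It was also lost without any 1 of the 4 libraries, where the log2 difference was 1.55 to 1.87. These fits used the same cells, so their similar log2 differences add no support.

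Of the 17 tested ORs, 9 had swap and control shares that did not overlap (52.9%), 8 of them higher and 1 lower in swap mice. An OR was tested with at least 10 cells over both genotypes, so that one frequent in a single genotype could pass through that genotype alone, and the count is a description. *Olfr769* was chosen by 3 and 8 swap cells and by 0 and 1 control cells (adjusted p = 0.0939 with edgeR), and *Olfr77* by 4 and 8 against 1 and 2 (adjusted p = 0.264). *Olfr411* went the other way, with 1 and 3 swap against 3 and 6 control cells (adjusted p = 0.661). *Olfr1030* was chosen alike in number, by 2 and 5 swap and by 3 and 5 control cells (log2 -0.05, SE 0.982), where the wide error leaves large differences possible.

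The windows of *Olfr77* and *Olfr1030*, both chosen by 15 cells, the first with unlike and the second with like numbers in swap and control mice, are shown for their TAATTA letters. They lie on the plus strand at chr9:19916979-19917278 and chr2:85979062-85979361 (GRCm38.p6, RefSeq), and capitals mark the same 4 motifs as above.
Olfr77: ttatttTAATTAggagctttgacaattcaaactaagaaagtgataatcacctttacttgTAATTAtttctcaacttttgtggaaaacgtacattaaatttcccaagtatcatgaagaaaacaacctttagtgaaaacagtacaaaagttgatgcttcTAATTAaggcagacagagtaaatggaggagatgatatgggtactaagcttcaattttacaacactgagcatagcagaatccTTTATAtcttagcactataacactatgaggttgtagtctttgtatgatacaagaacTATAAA
Olfr1030: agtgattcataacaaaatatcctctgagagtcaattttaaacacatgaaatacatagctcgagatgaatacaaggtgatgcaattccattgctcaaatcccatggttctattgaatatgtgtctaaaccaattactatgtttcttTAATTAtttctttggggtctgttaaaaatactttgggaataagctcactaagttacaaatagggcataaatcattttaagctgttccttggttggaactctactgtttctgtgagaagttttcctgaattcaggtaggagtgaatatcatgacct
*Olfr77* held TAATTA at 3 places, 244, 191 and 93 bases before the start, and *Olfr1030* at 1, 105 bases before it. *Olfr481* and *Olfr812* also had both swap shares above both control shares. The *Olfr481* window held TAATTA at 1 place, 102 bases before the start, and the *Olfr812* window at none. Whether the letters go with the numbers of cells was not tested. Of 839 class II OR windows 19.2% held TAATTA and 41.4% TATAAA. The homeodomain letters were found in 4 of the 13 matched ORs that were at least 80% Nqo1-positive (30.8%) and in 6 of the 36 matched ORs at 10% or below (16.7%). These shares rest on few ORs and were not tested.

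The 12 ORs chosen most took a larger part of the set in swap mice. Together they were chosen by 25.5% and 24.9% of the cells in swap and by 11.9% and 11% in control mice, with 6.12% in *gg8tTA* and 3.73% in *tetOP2*. The *tetOP2* share is over all 134 cells, of which 88 had the forced *Olfr17*. The 12 were picked for their mean share over the same 4 libraries, so this is a description. After *Olfr1361* they were *Olfr19*, *Olfr77*, *Olfr481*, *Olfr1030*, *Olfr813*, *Olfr812*, *Olfr1406*, *Olfr322*, *Olfr411*, *Olfr769* and *Olfr1404*. Not all stood on 2 replicates, since 8 of the 10 swap cells with *Olfr481* were in replicate 1 and 8 of the 9 with *Olfr322* in replicate 2.

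**Figure D4:**
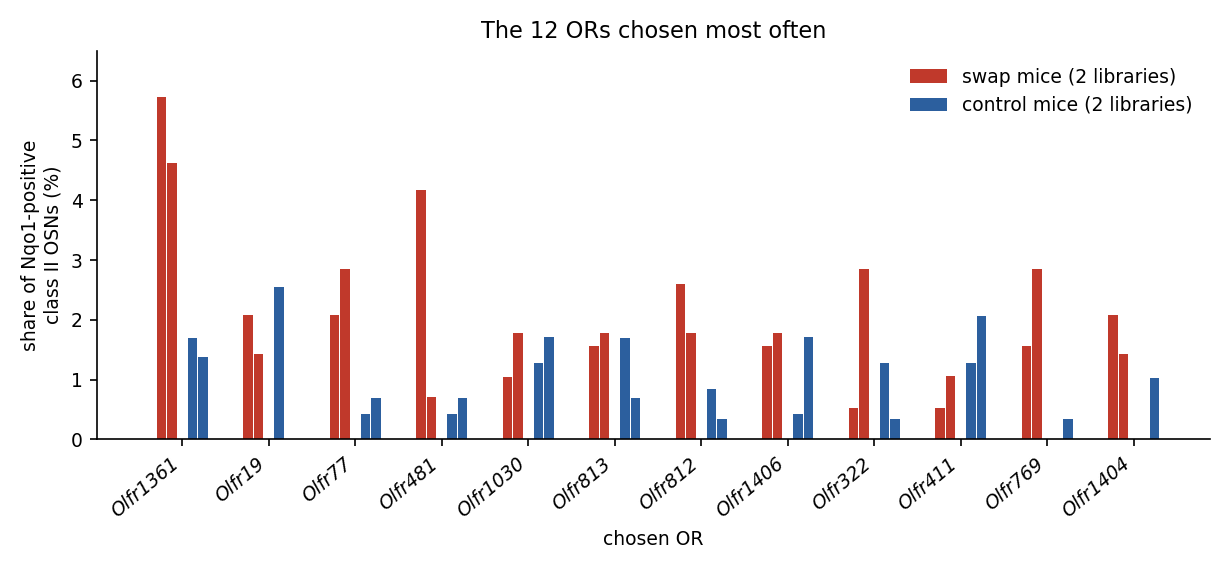
Share of Nqo1-positive class II OSNs, in percent, that chose each of the 12 ORs with the highest mean share, by library. *Olfr1361* reaches 5.73% and 4.63% in swap and 1.70% and 1.37% in control mice.

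The OR genes of the set were spread over chromosomes in other proportions than those of Nqo1-negative OSNs, a difference that was not tested. Over the swap and control libraries, 16.5% of Nqo1-positive class II OSNs chose an OR of chromosome 9 and 12.7% one of chromosome 10, against 5.33% and 7.26% of Nqo1-negative OSNs. Chromosome 17 supplied 2.10% against 7.58%. Between genotypes, chromosome 2 supplied 14.6% and 17.1% of the set in swap and 26.4% and 26.5% in control mice. Its part was also lower in the Nqo1-negative OSNs of swap mice, at 20.3% and 18.7% against 26.6% and 26.6%. Chromosome 10 supplied 13.5% and 17.8% in swap and 9.79% and 9.62% in control mice, and chromosome 13, which holds *Olfr1361*, 6.77% and 5.69% against 2.98% and 2.41%. Of 15 chromosomes, 8 had shares of the set that did not overlap (53.3%), and each of these has an exact permutation p of 0.33.

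The set used fewer different ORs in swap mice. It held 110 and 130 ORs in swap and 164 and 180 in control mice, with 120 in *gg8tTA* and 40 in *tetOP2*. At an equal number of 192 cells, taken as the expected number over all subsets, these were 110 and 106.6 in swap and 141.4 and 136.6 in control mice. Both swap libraries lay below both controls, by 30.7 ORs on average (exact permutation p = 0.33). The difference ranged from -28.3 to -33.1 over the alternative settings and did not change sign.

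**Figure D5:**
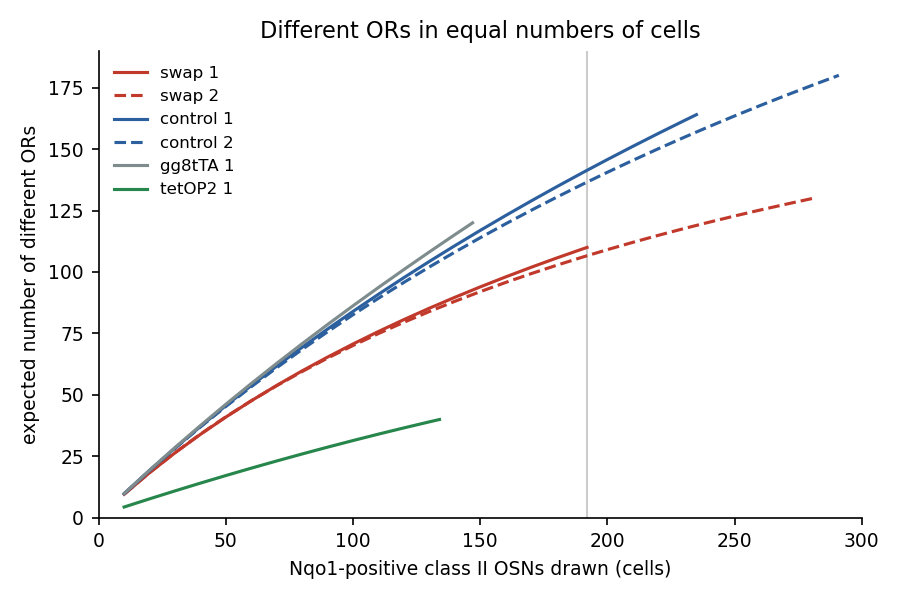
Expected number of different ORs against the number of Nqo1-positive class II OSNs taken from each library. At 192 cells the swap curves stand at 110 and 106.6 ORs and the control curves at 141.4 and 136.6.

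The targeted gene was low in the swap cells, as a check of the labels. *Cbx1* stood at 4.37 and 3.77 CPM in the Nqo1-positive class II OSNs of swap and at 83.0 and 157 CPM in those of control mice (log2 -4.89, SE 0.411, edgeR adjusted p = 0.0263). It was found in 6 of 192 and 11 of 281 swap cells and in 145 of 235 and 240 of 291 control cells. *Cbx5* stood at 75.1 and 92.0 CPM in swap and at 22.9 and 38.8 in control mice without overlap, but was not called (log2 1.42, SE 0.314, adjusted p = 0.636). DESeq2 gave it an adjusted p of 0.042. *Cbx3*, the gene of HP1γ, had a log2 difference of -0.26.

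Apart from *Cbx1* and OR genes, few genes of the set were called between swap and control mice. Of 10471 genes tested with edgeR, 23 were called (0.22%), 8 higher (0.0764%) and 15 lower (0.143%) in swap mice. OR genes made up 20 of the 23, out of 157 tested, and 3 of 10314 other genes were called. Group ranges in CPM did not overlap for 18.5% of all genes. Of the gene lists named above, the only gene called with edgeR was *Cbx1*. DESeq2 also called *Cbx5* and the carbonyl reductase *Cbr2* of the xenobiotic enzymes, which stood at 71.2 and 110 CPM in swap and at 23.6 and 34.9 in control mice (log2 1.61, adjusted p = 0.00815 with DESeq2 and 0.519 with edgeR). The *Cbr2* difference was 0.66 on the log2 scale without cells of at least 10 neutrophil UMIs, 0.66 without ORs of a class I family name and 1.02 without cells with a second OR. The 6 tested sustentacular markers had a median log2 difference of 1.23 with none called with edgeR or DESeq2 and 1 at an unadjusted p under 0.05. The 7 listed, none at 0 and led by *Cyp2a5*, summed to 79.1 and 226 CPM in swap and to 86.9 and 82.0 CPM in control mice, and their part in the *Cbr2* values was not tested. With edgeR 176 genes in all had an unadjusted p under 0.05.

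None of the genes that mark the set was called between swap and control mice. *Acsm4* was at 537 and 407 CPM in swap and 468 and 341 in control mice, ranges that overlap (log2 0.18, SE 0.285), and *Cartpt* had a log2 difference of 0.02 (SE 0.265). In both same-numbered pairs *Acsm4* was higher in swap mice. Cells of the set without *Acsm4* made up 5.73% and 9.96% in swap and 15.7% and 15.8% in control mice. These shares did not overlap, and their difference was not tested. *Nqo1* itself stood at 1651 ± 258 CPM in swap and 1581 ± 158 in control mice (SD, n = 2 each), among cells chosen for it. The ventral gene *Ncam2* was at 9.17 and 4.65 CPM in swap and 23.6 and 23.4 in control mice without overlap (log2 -1.82, SE 0.401, adjusted p = 0.635), and in the Nqo1-negative OSNs its log2 difference was -0.46. The swap effects on *Ncam2* in the 2 sets were not shown to differ (adjusted p of the difference 0.705). Over 11879 genes the effects differed for 16 (0.135%), 15 of them OR genes and the other *Dcpp3*.

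The called OR genes reflected single choices of few cells. *Olfr1173* was chosen by 2 and 3 control cells, with 309 and 525 UMIs, and by 0 swap cells. *Olfr1140* and *Olfr959* were each chosen by 3 control cells and 0 swap cells. *Olfr766* and *Olfr1366* were each chosen by 4 swap cells and 0 control cells. Every one of the 20 called OR genes was chosen by 2 to 5 cells of the set in 1 genotype and by 0 in the other, so the fitted fold changes are no measure of size.

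The 2 other called genes, *Il1b*, a cytokine, and *Ifitm1*, an interferon-induced membrane protein, drew most of their UMIs in swap replicate 2 from 1 cell each. *Il1b* had 72 and 206 UMIs in swap and 0 and 2 in control mice, and 195 of the 206 came from 1 cell. *Ifitm1* had 110 and 243 against 19 and 26 UMIs, and 220 of the 243 came from 1 cell, while in swap replicate 1 the top cell held 36 of the 110. *Ifitm1* was found in 16.7% and 7.12% of swap and in 7.23% and 5.15% of control cells, and in 27.2% and 27.6% of those of *gg8tTA* and *tetOP2*. Cells with at least 10 neutrophil marker UMIs numbered 4, 3, 1 and 1 in swap replicates 1 and 2 and control replicates 1 and 2. Without them neither gene was called, and *Cbx1* was the only called gene that is not an OR.

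Receptor transcript per cell was not distinguishable between genotypes. After each cell was thinned to 3000 UMIs, the median count of the chosen OR was 13 and 21 in swap and 15.5 and 23 in control mice, with 20 in *gg8tTA* and 24 in *tetOP2*. The groups overlapped, and the replicates of a genotype differed more than the genotypes (difference -2.25 UMIs, exact permutation p = 0.667). Swap minus control in the same-numbered pairs was -2.5 and -2.0 UMIs. Unthinned medians were 48.5 and 80 in swap and 63 and 96 in control mice, with pair differences of -14.5 and -16.0. A second OR with 3 UMIs or more occurred in 6.25% and 6.05% of the set in swap and 6.81% and 10.3% in control mice (exact permutation p = 0.33), with 10.2% in *gg8tTA* and 2.24% in *tetOP2*. The difference of -2.41 points was -0.66 without control replicate 2 and -4.16 without control replicate 1. With a second OR of at least 1 UMI the shares were 34.9% and 43.4% in swap and 45.1% and 47.8% in control mice. They were 87.8% in *gg8tTA* and 68.7% in *tetOP2*.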

How the data were processed

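The authors deposited counts for each of 6 libraries, UMIs per gene symbol and cell barcode, made with Cell Ranger with introns included (matrix header software 3.1.0, build mm10 in the submitters' notes) and not normalized. Here cells were gated and UMIs were summed per library and cell set. edgeR 4.0.16 (quasi-likelihood, TMM, filterByExpr) compared sums, calls required both a log2 difference beyond 0.58 and a p under 0.05 after Benjamini-Hochberg adjustment, and DESeq2 1.42.0 was an alternative. Library shares were compared by exact two-sided permutation. Doublets were predicted at 0.8% per 1000 cells and kept. Counts were simulated with variation from a trend fitted to these sums and with changes only in the better-expressed genes. On them the 2 edgeR designs recovered 192 and 188 of 200 changed genes with 7 and 5 false calls. This does not give the share of real changes found, and *Cbx5*, for example, was not called between swap and control. The naming rule took the 10 called genes per direction with the smallest p, the 12 ORs chosen most, and every listed gene. Not every listed gene is printed, and a few others were named for their pattern. The cell set and the lists were chosen with earlier results of these data known. The study's methods call the paired libraries of a genotype biological replicates. Other data of the study were not used here. A part of the genotype labels is not reported here.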

Additional observations from a re-analysis of the deposited data

Results flagged for a closer look

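Of the genes tested, 3 differed in their swap effect between Nqo1-positive class II OSNs and Nqo1-negative OSNs by edgeR's interaction term and were not OR genes or were also called within the Nqo1-positive cells, out of 16 called of 11879 tested (0.135%). *Olfr434* (adjusted p of the difference 0.0125) was chosen by 2 Nqo1-positive cells in control mice and 0 in swap mice, and by 7 Nqo1-negative cells in swap mice and 0 in control mice. *Olfr1020* (adjusted p = 0.0242) was chosen by 3 Nqo1-positive control cells and 0 swap cells, and by 1 Nqo1-negative swap cell. *Dcpp3* (adjusted p = 0.0208) had 277 UMIs in Nqo1-positive cells of swap replicate 2, all in 1 cell, and 145 and 31 UMIs in the Nqo1-negative cells of the control libraries.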

How the results depend on the processing

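The larger share of Nqo1-positive class II OSNs in swap mice, its size among class II OSNs and the smaller number of ORs kept their direction under every alternative run, including single replicates left out. The 287 genes called against Nqo1-negative OSNs became 202 to 372 under the alternatives. Of the 33 called genes under the naming rule, not all of them printed above, 27 were called in all. Of the 8 named called genes between swap and control 4 were (*Cbx1*, *Olfr1140*, *Olfr1366* and *Olfr959*), and *Ifitm1*, *Il1b*, *Olfr1173* and *Olfr766* were lost in at least 1. Against Nqo1-negative OSNs *Kirrel2*, *Krt5*, *Mki67*, *Sema6d*, *Sult1d1* and *Top2a* were lost in at least 1. The 23 genes called between swap and control became 57 with DESeq2, 51 with no filter on low counts, 11 with the replicate number as a block, 1 with OR genes left out, 13 without cells with a second OR (an alternative added after the data were seen, as were those on class I family names and neutrophil UMIs) and 90 to 159 with a replicate left out, where a lone library is taken to vary like the other group. The 16 genes of the interaction became 48 with no filter. The 1 called OR became 0 with DESeq2, 0 with a minimum of 5 cells and 0 with any replicate left out. The labels do not say what the replicate number marks. The deviations of swap and control replicate 1 from their group means had r = 0.248 over 10471 genes. The block by replicate number left *Olfr1361* called. The UMIs of the chosen OR differed by -6.25 to 1.75 with a replicate left out (1.75 without swap replicate 1, 1.5 without control replicate 2). The Nqo1-positive share under dorsal ORs differed by 12.9 points with classes from *gg8tTA* and *tetOP2*, 1.95 with 1 *Nqo1* UMI and -18.3 to -7.22 with a replicate left out. Under other ORs it differed by -4.17 with 5 cells per OR, -0.32 with both libraries and -1.93 to 2.01 with a replicate left out (-0.39 without swap replicate 1). Without swap replicate 1, *C1qa* turned negative against Nqo1-negative OSNs (log2 -2.34 to 1.41 over single libraries left out), as did, in swap against control, the neutrophil genes *S100a8* (-4.13 to 1.83), *S100a9* (-3.94 to 1.75), *Ngp* (-6.48 to 2.42), *Camp* (-6.57 to 1.57) and *Retnlg* (-5.25 to 1.73). The cause was not tested in any of these. Classes with 5 cells per OR gave no dorsal OR and no value. The number of cells per OR limits the comparison of ORs, since few reach 10.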

Other observations

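Class I OSNs with at least 2 *Nqo1* UMIs, those with *Avp* included, were a smaller part of class I OSNs in swap mice, with 83.3% and 75.3% of 72 and 97 cells against 93.6% and 89.9% of 109 and 109 in control mice (difference -12.4 points, exact permutation p = 0.33, the smallest possible). In the same libraries *Cd55*, a complement regulator, stood at 134 to 370 CPM in those without *Avp* and at 41.7 to 182 CPM in the class II set, a difference that was not tested.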
